A study of Mus musculus with 3 samples.

Results

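The regions described here are peaks called for retinoic acid receptor beta (RARβ) that lie just outside a peak called for H3K4me3. They were taken from the RARβ peak list as the peaks that share no base with an H3K4me3 peak and whose nearest edge lies 1 to 5000 bp from the nearest edge of one. The rule found 734 flanking RARβ peaks among 8075, a share of 9.09% (Wilson 95% interval 8.48 to 9.74), or 25.9% of the 2831 RARβ peaks outside H3K4me3. Of the remaining RARβ peaks, 5244 overlapped an H3K4me3 peak, 1772 lay farther than 5 kb and up to 100 kb away, and 325 lay beyond that. These sites were chosen by the start and end positions in both lists, so their distance from H3K4me3 is a description and not a finding.

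The sites come from ChIP-seq, in which DNA bound by a protein is precipitated with an antibody and sequenced. The tissue was the caudate putamen, or dorsal striatum, of male wild-type mice with a C57BL/6J x 129SvEms/j background. The 2 libraries used were made with antibodies against RARβ (sc-552) and against H3K4me3 (ab8580), with 1 library per antibody, and both shared genotype, tissue, sex and strain. An anti-GFP library (ab290) of the same kind of tissue was not analysed here. RARβ-null littermates were raised alongside, but each of the libraries is labelled wild type. Age, treatment and the number of animals behind a library are not given in the sources used here. The tissue was used whole, so the cell type in which a site is bound cannot be told from these lists. The RARβ library had 2237580 tags after removal of redundant tags, which made up 55.2% of its tags. The H3K4me3 library had 47461843, with a redundant rate of 0.21. With 1 library per antibody there is no replicate error, and no test was made. The intervals cover counting error, or the spread between peaks of the same library, and peaks are not independent replicates.

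As a nuclear receptor, RARβ acts on DNA as a heterodimer with a retinoid X receptor, usually at a pair of hexamer half-sites called a retinoic acid response element. Without retinoic acid it recruits corepressors, and with the ligand it recruits coactivators. In the striatum RARβ is the prominent retinoic acid receptor and is found in the medium spiny neurons, the main output cells of this region. H3K4me3 is placed by the SET1 and MLL methyltransferase complexes around the starts of active and poised genes, most of all at CpG-rich promoters. The sequence next to such a region is commonly marked by H3K4me1 instead, and enhancers can lie there.

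Sequence of the genome build to which these peaks refer (mm9) was not used here, nor an annotation of it. The sites are therefore named by position, counted from 1, and neither their bases nor the genes they lie in are given.

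RARβ summits became sparser with distance from the mark, and the flank was a zone of low density beside the marked regions. The flank of all H3K4me3 peaks, from 1 to 5000 bp, took up 300 Mb. The flanking peaks amounted to 2.45 per Mb of it (Poisson 95% interval 2.27 to 2.63). Inside H3K4me3 peaks there were 63.0 RARβ summits per Mb. When every RARβ summit outside the mark was counted by its own distance, the flank held 2.73 summits per Mb (2.55 to 2.93). The next 5 kb, from 5001 to 10000 bp, held 1.80 per Mb (1.63 to 1.98). Farther out there were 1.67 summits per Mb at 10001 to 20000 bp, 1.22 at 20001 to 50000 bp and 0.740 at 50001 to 100000 bp. The lengths include sequence to which no read can be assigned, whose part in these densities was not tested.

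Within the flank the density was highest beside the edge. The first 500 bp held 153 summits, or 4.39 per Mb (3.72 to 5.14). Only 46 of these belong to flanking peaks, because most peaks with a summit that close reach into the H3K4me3 peak. From 501 to 1000 bp the density was 2.81 per Mb (2.27 to 3.44), and 88 of the 94 summits belong to flanking peaks. From 1001 to 1500 bp it was 3.19 per Mb (2.61 to 3.87), and from 4501 to 5000 bp it was 2.27 (1.73 to 2.93). Neighbouring bins beyond the first 500 bp had intervals that overlapped.

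**Figure D1:**
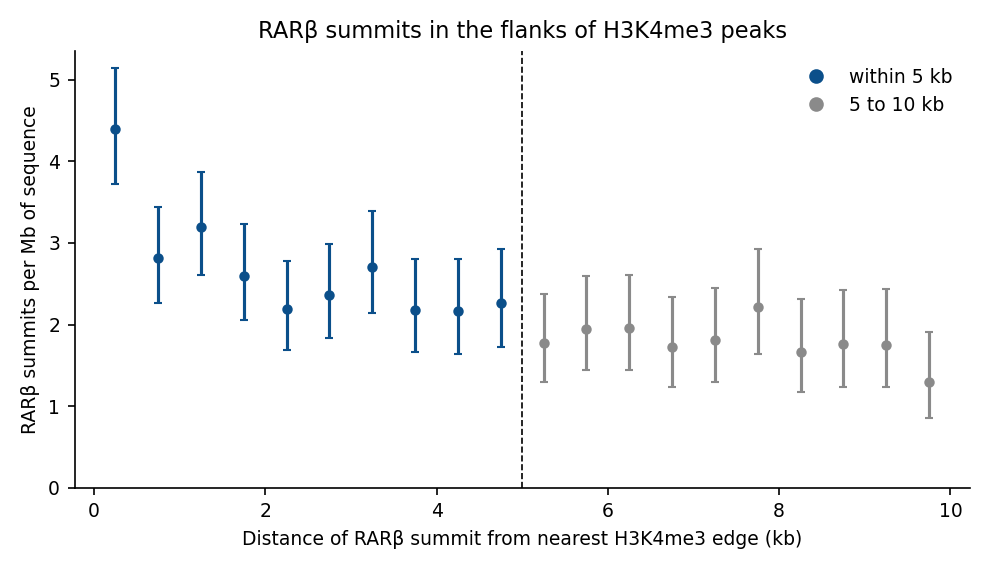
RARβ summits per Mb of sequence (vertical axis) in bins of 500 bp by distance of the summit from the nearest H3K4me3 edge in kb (horizontal axis), for all RARβ summits outside H3K4me3; bars are Poisson 95% intervals and the dashed line is at 5 kb. The first bin stands at 4.39 per Mb, the last bin within 5 kb at 2.27, and the bin from 9501 to 10000 bp at 1.30.

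The gap between a flanking peak and the mark had a median of 2022.5 bp, with quartiles of 888.25 and 3309.5 bp. Of the 734 peaks, 203 (27.7%) lay within 1000 bp, 163 (22.2%) at 1001 to 2000 bp, 135 (18.4%) at 2001 to 3000 bp, 130 (17.7%) at 3001 to 4000 bp and 103 (14.0%) beyond. The peak nearest to a mark, on chromosome 12 at 16664049 to 16664721, had a gap of 2 bp and 8 tags. It lies beside an H3K4me3 peak of 4195 bp. The next nearest were 2 more sites of chromosome 12, at 82744390 to 82744914 with a gap of 3 bp and at 100590571 to 100591102 with 4 bp. Then came chromosome 11 at 5145609 to 5146257 with 7 bp and chromosome 7 at 16567000 to 16567417 with 8 bp. These 5 sites had 7 to 9 tags each, and the H3K4me3 peak beside each of them held no RARβ peak. Just past this edge of the rule, the 5 overlapping RARβ peaks with the fewest shared bases had 9 to 22 bp in common with an H3K4me3 peak and had 7 to 14 tags.

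At the far limit, the 5 flanking peaks with the largest gaps lay 4928 to 4988 bp away and had 9 to 20 tags. The farthest was on chromosome 13 at 51519969 to 51520499, with 11 tags and a fold enrichment of 7.12. Just beyond 5000 bp, the next 5 RARβ peaks lay 5016 to 5056 bp away and had 7 to 11 tags. The values on both sides of each limit overlapped.

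Most flanking peaks were small. Tags per peak ran from 7 to 83 with a median of 9 (exact 95% interval of the median 8 to 9), and 7 tags, the fewest of any RARβ peak, were found in 234 of them. That is 31.9% (Wilson 95% interval 28.6 to 35.3), against 17.5% of the overlapping peaks (16.5 to 18.6) and 21.8% of the whole list. Peaks farther than 5 kb and up to 100 kb away had 7 tags in 29.1% of cases (27.1 to 31.3), so the flanking peaks were close to the distal ones. At least 30 tags were found in 18 flanking peaks, or 2.45% (1.56 to 3.84), against 3.76% of overlapping peaks (3.27 to 4.31) and 3.33% of the whole list. The flanking peaks held 8138 tags together, which is 0.364% of the tags that library kept after filtering.

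Flanking and distal peaks were also close in width. The median width was 621.5 bp in flanking peaks (exact 95% interval 607 to 632), 673 bp in overlapping peaks (667 to 680) and 617 bp in distal peaks (610 to 624). Per length the groups differed little, with medians of 15.03 tags per kb in flanking peaks (14.68 to 15.30) and 15.30 in overlapping peaks (15.18 to 15.42). Fold enrichment is the authors' own value per peak, the height of the tag pileup at its summit over the background the peak caller expected. That background need not be the local control, and values such as 15.48, 19.35 and 27.08 recurred across peaks. Fold enrichment had a median of 20.43 in flanking peaks (19.35 to 22.70). It was 19.35 in overlapping peaks and 21.07 in distal ones (20.43 to 22.99). The authors' empirical false discovery rate (FDR) was at most 5% for 731 of the 734, and the 3 exceptions are the sites on chromosomes 2 and 9 with the highest scores. Among the 10 sites with the most tags the FDR rose with the score, from 0.78% at a score of 324.84 to 33.33% at 1185.62. The median FDR of all flanking peaks was 0.09%. At the top of the list a high FDR thus does not mark a weaker site.

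Across the flank these values were much alike. The median number of tags was 8 within 1000 bp (8 to 9), 9 at 1001 to 2000 bp (8 to 10) and 9 at 4001 to 5000 bp (9 to 11). The intervals of the first and last of these classes only met, at 9. The median width was 615 bp in the first of these classes and 639 bp in the last, and the intervals of both medians overlapped (592 to 635 and 617 to 657). Across the 734 peaks, which share 1 library, Spearman's rho of the gap was 0.0864 with tags and 0.00841 with fold enrichment.

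**Figure D2:**
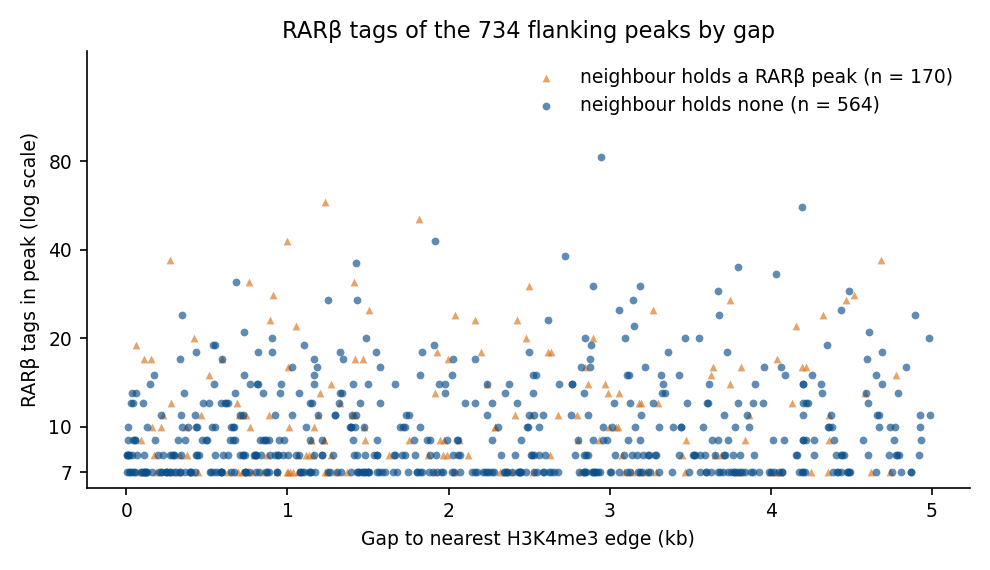
RARβ tags per peak (vertical axis, log scale) against the gap to the nearest H3K4me3 edge in kb (horizontal axis) for the 734 flanking RARβ peaks; triangles are peaks whose neighbouring H3K4me3 peak holds a RARβ peak (170) and circles those whose neighbour holds none (564). Peaks of 7 tags occur at all gaps, and those of 30 tags or more lie between 272 and 4685 bp.

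The strongest of the flanking sites lay on chromosome 2 at 152147189 to 152148243. RARβ tags numbered 83 (Poisson 95% interval 66.1 to 103). Its fold enrichment was 181.85 and its FDR 33.33%, a value that goes with the highest score and does not mark a weak site. Its neighbour, 2950 bp away, was an H3K4me3 peak of only 1149 bp and 79 tags, or 68.8 tags per kb. That neighbour held no RARβ peak. A second flanking peak with 14 tags lay on chromosome 2 at 152148335 to 152149213, with a summit 998 bp from the first.

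A pair of sites on chromosome 9 had the next highest tag number and the next highest fold enrichment. The first, at 44992914 to 44994521, had 58 tags (44.0 to 75) and a fold enrichment of 65.77, and lay between H3K4me3 peaks 1230 and 2496 bp away. The second, at 45005321 to 45006199, had 51 tags (38.0 to 67.1) and a fold enrichment of 111.14, at a gap of 1815 bp. Their FDRs, 7.69% and 7.14%, also go with high scores. Both belong to a group of 6 RARβ peaks in which each summit lies within 10 kb of the next. The group spans 44990235 to 45015948 and has 3 peaks inside H3K4me3, with 23, 19 and 7 tags, and 1 farther out with 10 tags. The H3K4me3 peaks beside the 2 flanking sites were weak, with 61.0 and 55.6 tags per kb, and each held a RARβ peak. In this group the sites with the most RARβ tags were the ones outside the mark.

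On chromosome 12 a site at 3238207 to 3239100 had 43 tags (31.1 to 57.9) and a fold enrichment of 97.26. It lay 998 bp from an H3K4me3 peak of 2800 bp with 398 tags per kb. A RARβ peak of 50 tags inside that H3K4me3 peak had its summit 3105 bp away. On chromosome 5 a site at 100920337 to 100921329 had 37 tags and a fold enrichment of 96.73, 4685 bp from an H3K4me3 peak of 4495 bp that held a RARβ peak of 16 tags. On chromosome 18 a site at 35275158 to 35276332 had 31 tags, 761 bp from an H3K4me3 peak of 3831 bp that held a RARβ peak of 14 tags. In the first of these 3 pairs the inner peak had more tags, and in the other 2 the outer one did.

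Other sites among the 10 highest by fold enrichment stood beside H3K4me3 peaks without RARβ. Chromosome 3 had 3 of them, at 153631377 to 153631962 with 29 tags, at 52641026 to 52642524 with 56 and at 135757248 to 135758140 with 24. The site of chromosome 1, at 92955881 to 92956917, had 27 tags, and that of chromosome 4, at 120065777 to 120066687, had 38. Their fold enrichments were 69.64 to 85.12. The list of the 10 with most tags adds chromosome 12 at 111941101 to 111942295 with 43 tags, chromosome 9 at 112081602 to 112082385 with 37 tags and chromosome 7 at 86504335 to 86505464 with 36 tags. The site at 112081602 lay 272 bp from an H3K4me3 peak of 10396 bp, and the one at 86504335 lay 1427 bp from one of 817 bp.

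Of the 18 flanking peaks with 30 tags or more, 15 (83.3%, 60.8 to 94.2) had another RARβ summit within 10 kb, against 40.7% of all flanking peaks and 28.2% of the whole list. The share for all 269 RARβ peaks of 30 tags or more was not computed, so tag number and position cannot be told apart here. Beside an H3K4me3 peak that held RARβ stood 8 of the 18 (44.4%, 24.6 to 66.3), against 23.2% of all flanking peaks. The neighbour of 5 of them (27.8%, 12.5 to 50.9) had an FDR up to 5%, against 23.2% of all flanking peaks and 35.0% of all H3K4me3 peaks. The median gap of the 18 was 2207 bp.

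The neighbours were 692 different H3K4me3 peaks. Of these, 652 had 1 flanking RARβ peak, 38 had 2 and 2 had 3. One of the last, on chromosome 11 at 68396284 to 68397292, was 1009 bp wide with 68 tags and had peaks of 13, 9 and 8 RARβ tags at gaps of 4596, 55 and 789 bp. The other, on chromosome 18 at 61515298 to 61516371, was 1074 bp wide, also with 68 tags, and had peaks of 9, 7 and 7 tags at gaps of 4273, 875 and 4757 bp. Neither of these H3K4me3 peaks held a RARβ peak.

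The neighbours had fewer H3K4me3 tags per length than other H3K4me3 peaks. The median density was 84.46 tags per kb at the 692 neighbours (exact 95% interval 80.14 to 90.12) and 122.0 at the other 35279 H3K4me3 peaks (120.0 to 124.5). The median tag number was 135.5 at neighbours (122 to 149) and 208 at other peaks (204 to 214). Their median width was 1562 bp (1507 to 1666), against 1682 bp at other peaks (1666 to 1698). The neighbours also had a lower median fold enrichment, 7.02 (6.50 to 7.54), against 10.40 (10.24 to 10.60). Among the neighbours, 23.8% had an FDR up to 5% (Wilson 95% interval 20.8 to 27.2), against 35.2% of other peaks and 35.0% of the whole list. The H3K4me3 library had 12.8 times as many tags as the control, which the authors scaled up to it.

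The distal RARβ peaks had a like kind of neighbour. Counted once per RARβ peak, the nearest H3K4me3 peak had a median density of 82.93 tags per kb for flanking peaks (78.74 to 87.55) and 89.17 for distal ones (85.13 to 92.73). The upper quartile differed more, at 191 tags per kb for flanking and 257 for distal peaks. The nearest mark was thus of low density for distal peaks too.

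**Figure D3:**
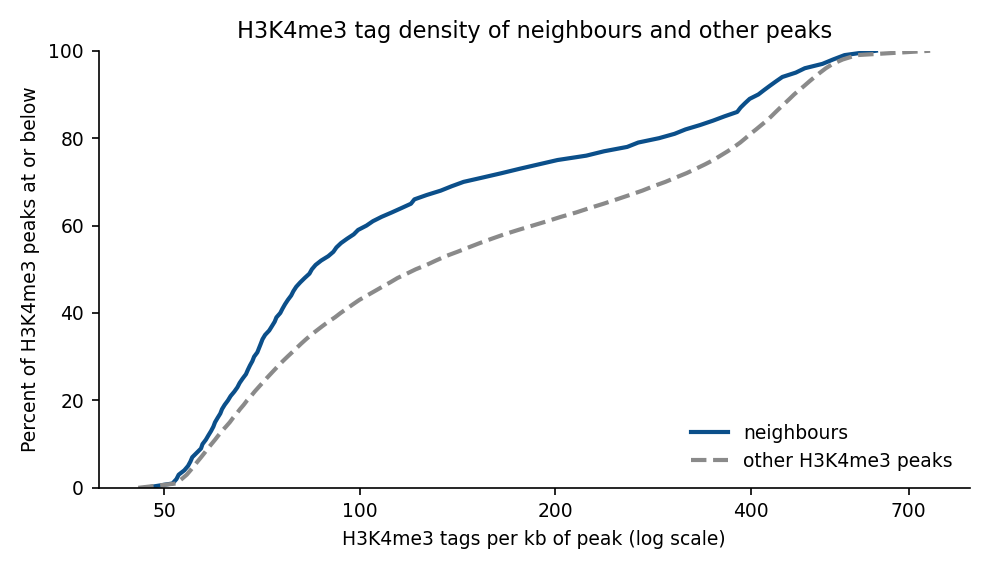
Share of H3K4me3 peaks at or below a given tag density (vertical axis, percent) against H3K4me3 tags per kb of peak (horizontal axis, log scale), for the 692 neighbours of flanking RARβ peaks (solid line) and the other 35279 H3K4me3 peaks (dashed line). The line of the neighbours runs to the left, with medians of 84.46 and 122.0 tags per kb.

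Some neighbours were very wide or dense. The widest neighbour, on chromosome 6 at 98959332 to 98979758, was 20427 bp wide with 6517 H3K4me3 tags and held 3 RARβ peaks. A flanking peak of 10 tags lay 3039 bp from it, at 98982797 to 98983525. The next widest, on chromosome 10 at 74778774 to 74797291, was 18518 bp wide and held no RARβ peak, with flanking peaks of 8 and 7 tags at gaps of 1432 and 4178 bp. The third, on chromosome 17 at 27074870 to 27091795, was 16926 bp wide and also held none, with a flanking peak of 7 tags. The others of the 5 widest held 4 RARβ peaks, on chromosome 18 at 65181202 to 65194063, and 2 RARβ peaks, on chromosome 9 at 44945312 to 44956895. The flanking peaks beside these 5 had 7 to 17 tags.

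The 5 neighbours with the highest tag density, 568 to 624 tags per kb, each had a flanking peak of 7 tags. The densest was on chromosome 12 at 112905916 to 112911810, with 3676 tags in 5895 bp. It had 2 flanking peaks, with 7 tags at a gap of 3807 bp and with 11 tags at 723 bp, and held 2 RARβ peaks, the nearer to both of these with 16 tags. The second, on chromosome 1 at 180457011 to 180462555, had 623 tags per kb and held none. Spearman's rho of the flanking peak's RARβ tags across the 734 peaks was -0.0169 with the density of the neighbour and 0.00847 with its width.

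A RARβ peak lay inside the neighbour of 170 flanking peaks, a share of 23.2% (Wilson 95% interval 20.3 to 26.3). Counted by neighbour, 154 of 692 held RARβ, or 22.3% (19.3 to 25.5), against 12.9% of the other H3K4me3 peaks (12.6 to 13.3) and 13.1% of the whole list. For distal RARβ peaks the nearest H3K4me3 peak held RARβ in 17.4% of cases (15.7 to 19.3), and for those beyond 100 kb in 11.4% (8.37 to 15.3). The rule did not use what the neighbour holds, but RARβ peaks near each other share a library and may share a locus, so no test was made.

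The share at neighbours lay above that at other peaks in each of 5 width classes of equal size. At other peaks the share grew from each class to the next wider one, while at neighbours the fourth class, 2072 to 3134 bp, lay below the third. The share with RARβ in the narrowest, 381 to 1101 bp, was 10.3% at neighbours (6.23 to 16.5) and 4.34% at other peaks (3.89 to 4.84). In the middle class, 1435 to 2071 bp, it was 27.3% at neighbours (21.4 to 34.2) and 10.4% at other peaks (9.71 to 11.1), and in the fourth 24.5% (17.0 to 33.9) and 15.3% (14.5 to 16.2). In the widest, from 3135 bp, it was 36.1% (28.1 to 44.9) and 28.3% (27.2 to 29.3), and these intervals overlapped. By tag density, the lowest of 5 classes had 16.4% at neighbours (11.7 to 22.4) and 6.57% at other peaks (6.02 to 7.18), and the highest had 39.3% (29.5 to 50.0) and 26.7% (25.7 to 27.8). The 2 classes above the lowest had 23.4% and 22.2% at neighbours, against 8.92% and 8.57% at other peaks. In the fourth, 182.0 to 391.7 tags per kb, the intervals overlapped, with 16.3% at neighbours (10.3 to 24.9) and 13.5% at other peaks (12.7 to 14.3).

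Among H3K4me3 peaks with an FDR over 5%, RARβ was found in 20.1% of the neighbours (16.9 to 23.7) and 7.81% of the others (7.47 to 8.17). Among those with an FDR of at most 5% it was found in 29.1% of the neighbours (22.7 to 36.4) and 22.3% of the others (21.5 to 23.0). The intervals of this second pair overlapped.

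The same split was then set against the length of flank. Each base of flank was assigned to its nearest H3K4me3 peak. H3K4me3 peaks that held RARβ had 4.50 flanking RARβ peaks per Mb of flank (Poisson 95% interval 3.85 to 5.23), against 2.15 for those that held none (1.98 to 2.34). With an FDR over 5%, the values were 8.07 per Mb where the H3K4me3 peak held RARβ (6.69 to 9.66) and 2.49 where it held none (2.26 to 2.73). With an FDR of at most 5% they were 2.21 (1.65 to 2.91) and 1.43 (1.18 to 1.71), and these intervals overlapped. By tag density of the H3K4me3 peak, from the lowest to the highest of 5 classes, there were 3.37, 3.72, 2.14, 1.66 and 1.41 flanking RARβ peaks per Mb. In the full list, the fewest were thus beside the H3K4me3 peaks of highest tag density. With an FDR up to 5%, H3K4me3 peaks had 1.60 per Mb (1.37 to 1.86) in the full list. When the list was cut to those peaks alone, the value was 3.58 (3.25 to 3.94).

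**Figure D4:**
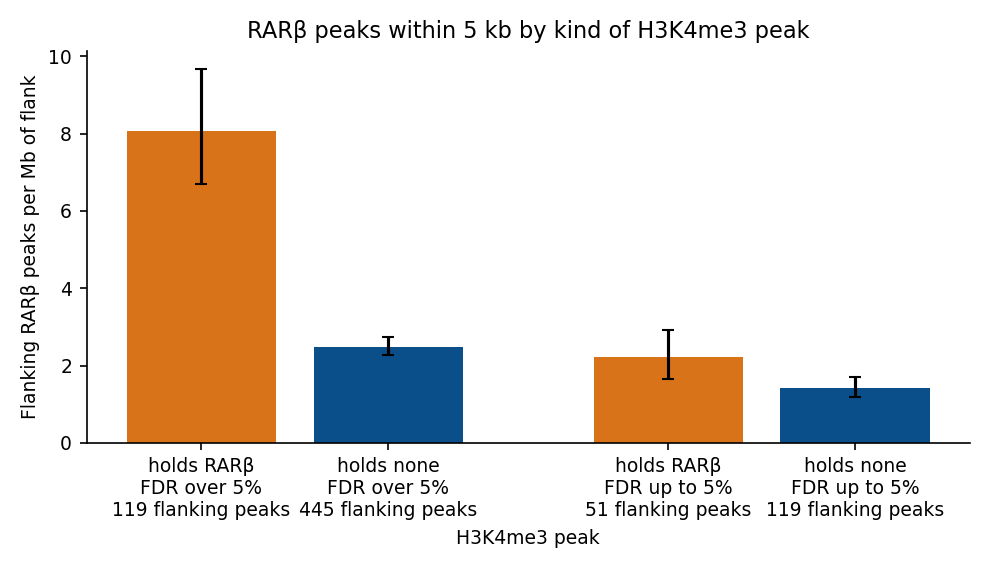
Flanking RARβ peaks per Mb of flank within 5 kb (vertical axis) for 4 kinds of H3K4me3 peak (horizontal axis), by whether the H3K4me3 peak holds a RARβ peak and by its FDR; bars are the densities and error bars the Poisson 95% intervals. The highest bar, 8.07 per Mb, belongs to H3K4me3 peaks with RARβ and an FDR over 5%, and the lowest, 1.43, to those without RARβ and with an FDR up to 5%.

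Flanking peaks whose neighbour held RARβ lay at a like distance from the mark as those whose neighbour held none, and had a slightly higher median tag number. Their median gap was 1923 bp (1399 to 2288), against 2062 bp (1833 to 2352). They had a median of 10 tags (9 to 11) against 8 (8 to 9), with intervals that met at 9. The shares with 7 tags, 27.1% (20.9 to 34.2) against 33.3% (29.6 to 37.3), had intervals that overlapped. At least 30 tags were found in 8 of 170 (4.71%, 2.40 to 9.01) against 10 of 564 (1.77%, 0.966 to 3.23), and these intervals overlapped. Their median fold enrichment was 21.68 (19.35 to 23.21), against 20.43 (19.35 to 22.39). The neighbour with RARβ had a median width of 1868 bp (1728 to 2154), against 1462 bp for the neighbour without (1388 to 1534).

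In the 170 pairs the flanking summit lay a median of 3408.5 bp from the nearest RARβ summit inside the neighbour (2829 to 3835), and 6 pairs were within 1000 bp. The flanking peak had fewer tags than the inner one in 95 pairs (55.9%, 48.4 to 63.1), as many in 12 and more in 63. The 170 pairs come from 154 neighbours, so some share an inner peak and are not independent. The median was 10 tags for the flanking peak and 12 for the inner one (11 to 13). Fold enrichment was lower in the flanking peak in 93 of the 170 pairs. Spearman's rho between the tags of both peaks was -0.0895 across the pairs. Of the neighbours, counted once per flanking peak, 24 of 170 held more than 1 RARβ peak.

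**Figure D5:**
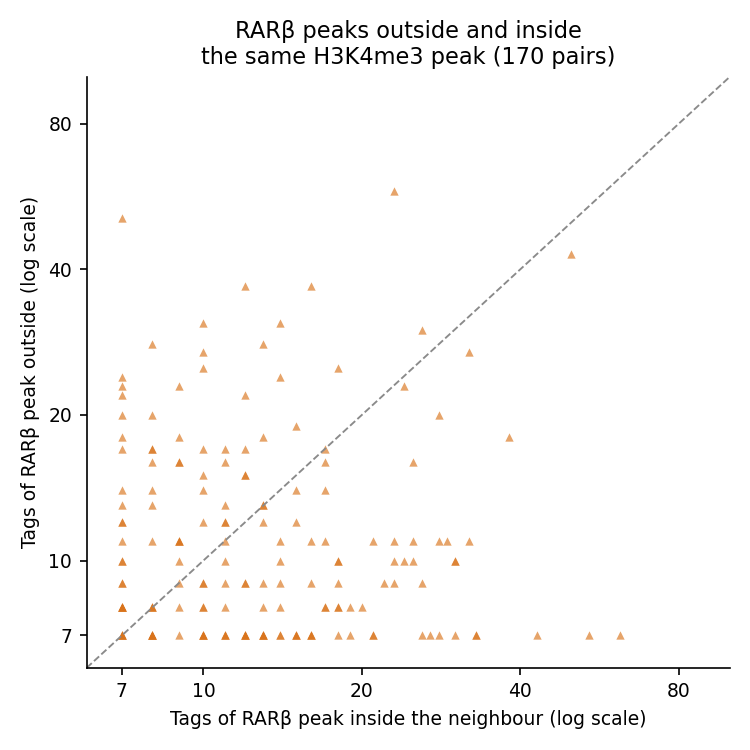
Tags of the flanking RARβ peak (vertical axis, log scale) against tags of the nearest RARβ peak inside the same neighbour (horizontal axis, log scale) for the 170 pairs, with a dashed line where both are equal. Points fall on both sides of the line, with 95 below and 63 above it.

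The flanking peaks lay on either side of the marks in near-equal numbers. In 386 of 734 (52.6%, 49.0 to 56.2) the RARβ peak was at the higher coordinate. The H3K4me3 summit of the neighbour lay closer to the edge that faces the RARβ peak in 364 cases (49.6%, 46.0 to 53.2). With gene starts not placed, the direction of transcription at these marks is not known here. The flanking summit lay a median of 3474.5 bp from the H3K4me3 summit of its neighbour (3228 to 3653).

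H3K4me3 peaks stood within 5 kb on both sides of 99 flanking RARβ peaks (13.5%, 11.2 to 16.1). The space between the H3K4me3 edges around them had a median of 5206 bp (4371 to 5739), and the smallest was 713 bp. These 99 had a median of 9 tags, like the other 635, and the nearer H3K4me3 peak held RARβ at 21 of them (21.2%, 14.3 to 30.3), against 23.5% at the others. Both gaps were at most 1000 bp at 8 sites, picked out here with their values known. Among these were 2 sites of chromosome 15, at 80463567 to 80464108, with gaps of 296 and 16 bp, and at 91583239 to 91583650, with gaps of 94 and 209 bp. The 8 sites had 7 to 10 tags each.

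Flanking peaks often had other RARβ peaks close by. Another RARβ summit lay within 10 kb of 299 of them (40.7%, 37.2 to 44.3), against 31.4% of overlapping peaks (30.1 to 32.6), 16.9% of distal ones (15.2 to 18.7) and 28.2% of the whole list. The nearest of these other peaks was inside the neighbouring H3K4me3 peak in 148 of the 299 cases and inside a different H3K4me3 peak in 58. It was another flanking peak in 70 and a distal peak in 23. In 80 cases it was within 2000 bp. The distance to the nearest other RARβ summit had a median of 17955.5 bp for flanking peaks and 31687 bp for overlapping ones. The rule itself puts flanking peaks within 5 kb of H3K4me3 peaks, which held 63.0 RARβ summits per Mb, and distal peaks farther off. These shares and distances therefore depend in part on the rule, and how much was not tested.

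Groups of 3 or more RARβ peaks, with summits at most 10 kb apart, took in 124 flanking peaks (16.9%, 14.4 to 19.8), against 11.5% of overlapping peaks (10.7 to 12.4) and 10.3% of the whole list. The share of distal peaks was 5.53% (4.56 to 6.69). These shares too depend in part on the rule. Of the 86 such groups with a flanking peak, 36 had more than 1. The largest with more than 1 flanking peak, on chromosome 12 at 112901470 to 112926382, had 7 peaks, 2 of them flanking with 7 and 11 tags and 5 inside H3K4me3 with 15 to 30 tags. There, unlike in the group on chromosome 9, the sites inside the mark had the most tags. A group on chromosome 11 at 97848865 to 97870215 had 6 peaks, 2 of them flanking with 10 tags each and 4 inside with 9 to 30 tags.

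Over the chromosomes, flanking peaks made up 7.28% (chromosome 14) to 12.1% (chromosome 12) of the RARβ peaks of each autosome. The interval for chromosome 12, with 55 flanking peaks, was 9.41 to 15.4, and the share over autosomes was 9.13%. Chromosome X had 2 flanking peaks among 52 RARβ peaks (3.85%, 1.06 to 13.0), on X at 34653350 to 34653825 with 9 tags and at 57796879 to 57797472 with 7 tags. At that number a difference from the autosomes was not detectable. Chromosome Y had none among 3.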

How the data were processed

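Per the submitters' processing notes, bases were called with CASAVA 1.8.2, reads aligned with Bowtie, and the genome build was mm9. Per the labels, libraries were amplified with 14 PCR cycles and read as single ends of 50 bases. Per the file headers, MACS 1.4.2 called the peaks of either library against 1 shared control library whose antibody is not stated, with a p cutoff of 1e-05 and at most 1 tag per position. For RARβ the control was scaled down, and for H3K4me3 it was scaled up 12.8 times. At the RARβ depth no peak had fewer than 7 tags, so smaller sites were not detectable.

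Tag counts per peak were deposited unnormalized. Fold enrichment (a ratio), the score (10 times the negative log10 of p, its column name lost) and the FDR in percent are the authors' deposited values.

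The edge distance is the difference between the nearest edge coordinates. The neighbour is the H3K4me3 peak with the smallest one, or the one with more tags at a tie. Overlap needed 1 bp. Medians have exact order-statistic 95% intervals, shares Wilson 95% intervals and numbers Poisson 95% intervals. Tags without molecular identifiers are not independent molecules, so these cover counting error only. Regions were named by rank: 10 by fold enrichment, 10 by tags, 5 at either end of the gap, 5 by width and 5 by density of the neighbour, and the neighbours with most members. The members, lists and measures were chosen with earlier results of these data known. The flank was also split by kind of H3K4me3 peak after the data were seen. Calculations used Python 3.11.15, numpy 2.4.6, pandas 2.3.3, scipy 1.17.1 and matplotlib 3.10.9, and were checked on simulated peaks. The lookup of gene lists was not run, since no mm9 annotation was used.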

Additional observations from a re-analysis of the deposited data

How the results depend on the processing

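Of 39 alternatives, 24 left the value within its 95% interval (a number of peaks within 1.5 times), and 15 did not. When the H3K4me3 list was cut to an FDR up to 5%, 424 RARβ peaks met the rule, 193 of them among the 734. Their median width was 640 bp, the neighbour held RARβ in 37.3%, and the neighbours had a median width of 4074.5 bp and 391 tags per kb, with 3.58 flanking peaks per Mb. The H3K4me3 peaks in the cut list are the denser ones by that choice, so this median was not set against other H3K4me3 peaks. RARβ lay in 2811 of the 12573 H3K4me3 peaks of the cut list, a larger share than the 13.1% of the full list. With the RARβ list cut at its median score, there were 333 flanking peaks, with a median of 12 tags and 728 bp, RARβ in the neighbour of 18.0%, and 1.11 per Mb. The share of all H3K4me3 peaks that held RARβ under this cut was not computed. A limit of 2000 bp gave 366 peaks at 2.78 per Mb and one of 10000 bp gave 1133 at 2.16 per Mb. Measured from the summit, 707 peaks met the rule. No paired analysis was possible because each antibody had 1 library and no test was made. Depth limits the list to sites of 7 tags or more, and a RARβ peak in a neighbour can be missed for the same reason.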
